A study of Callithrix jacchus with 4 samples.

Results

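Transcripts of nuclear-encoded subunits of respiratory complexes II, III and IV and of ATP synthase (complex V) were examined in frontal cortex of the common marmoset (Callithrix jacchus), a New World monkey. The members were the rows of the deposited count table whose gene symbol was on a list of 38 subunit genes. Of these, 23 were found by symbol among 35108 rows, namely 4 of complex II, 3 of complex III, 1 of complex IV and 15 of ATP synthase. The table lists many genes by an NCBI gene ID in place of a symbol, and 14 more of the 38 were traced through that ID to the symbol in RefSeq (6 of complex III and 8 of complex IV). This step was added after the names in the table had been seen, so counts are given for the 23 first and for the 14 apart. COX6C was matched by neither route and is not analysed here. All 37 rows passed the filter on low counts.

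The series compared adult wild-type animals (libraries 1 and 2) with adult animals whose labels give an APP transgene (here the carriers, libraries 1 and 2). Per the title of the series, the transgenes encode mutant amyloid precursor protein, the source of the amyloid-β peptide, and are driven by the promoter of human EF1α, a translation factor made in nearly all cells. The mutations, the number of founders and any shared treatment are not given in the labels. The labels call both transgenic animals female and give no sex for the wild type. Counts of KDM5D, a gene on the Y chromosome, were 2 in wild-type library 1, 243 in wild-type library 2 and 0 in both carriers, so part of the genotype comparison cannot be told apart from sex. The labels do not state that each library is its own animal, so p-values measure the spread between these libraries, which may in part be technical.

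The respiratory chain sits in the inner mitochondrial membrane. Complex II oxidises succinate and is also an enzyme of the citric acid cycle, complex III passes electrons from ubiquinol to cytochrome c, and complex IV hands them to oxygen. The proton gradient built by the chain turns ATP synthase, which supplies most of the ATP that neurons spend on ion pumping and synaptic transmission. Complex II is encoded in the nucleus alone, whereas complexes III, IV and V also hold subunits encoded in mitochondrial DNA. Of 12 entries searched for those subunits none matched a row, so only the nuclear part of each complex is described.

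Library totals lay between 12657323 and 18932180 counts. Levels are in CPM, counts relative to the scaled size of their library. APP stood at 1822 and 2182 CPM in wild type versus 2143 and 2748 CPM in carriers, so the groups overlapped. Its fitted log2 fold change was 0.29 with a standard error of 0.22 (edgeR adjusted p = 0.80). Carrier library 2 stood apart from the rest. Its 9 astrocyte markers summed to 3236 CPM against 9156 to 10830 CPM in the other libraries, and its 9 oligodendrocyte markers to 1191 against 2589 to 3293 CPM. All 8 pan-neuronal and all 8 excitatory neuron markers were detected in every library, as the tissue label requires. In RNA of bulk tissue, fewer cells of a type and less RNA per cell cannot be told apart.

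Most of the subunit transcripts were slightly lower in both carrier libraries, and no single one passed the test. Of the 23 members, 22 had a fitted log2 fold change below 0, against 50.4% of the 16385 genes tested. The median was -0.20, with a range of -0.55 to 0.03, against -0.0022 for all genes tested. In 17 of the 23 both carriers lay under both wild types (73.9%, against 19.4% of all genes), and in none did both lie above, as in 19.5% of all genes. Without wild-type library 1 the median was -0.10, and 20 of 23 were lower in sign (49.5% of all genes). Leaving it out brought the fold change of 11 of the 23 nearer to 0 by over 1.5 times and changed the sign of SDHA and ATP5PB. The wild type left in that fit was library 2, with 243 counts of KDM5D. Genotype and sex cannot be told apart there. Without wild-type library 2 the median was -0.24. All members share the same 4 libraries and are no independent replicates, so these counts describe the list and test nothing.

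The quasi-likelihood test of edgeR called 0 of the 23 members at an adjusted p of 0.05, and their adjusted p lay between 0.79 and 0.97. The background was the same, since 0.0% of all genes tested passed. Without adjustment 4 members had a p under 0.05, all on the lower side, where 2.39% of all genes tested stood. These were ATP5F1D, ATP5PF, SDHB and SDHD. DESeq2 and limma-voom, run as alternatives, also called 0 of the 23, with 4 at an unadjusted p under 0.05 in each, and they called 0.293% and 0.0% of all genes. The genes traced by ID gave like values: 11 of 14 were lower in sign (50.4% of all genes) and the median was -0.18. Both carriers lay under both wild types in 10 of the 14 (19.4% of all genes), and COX6B1 alone had an unadjusted p under 0.05.

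**Figure D1:**
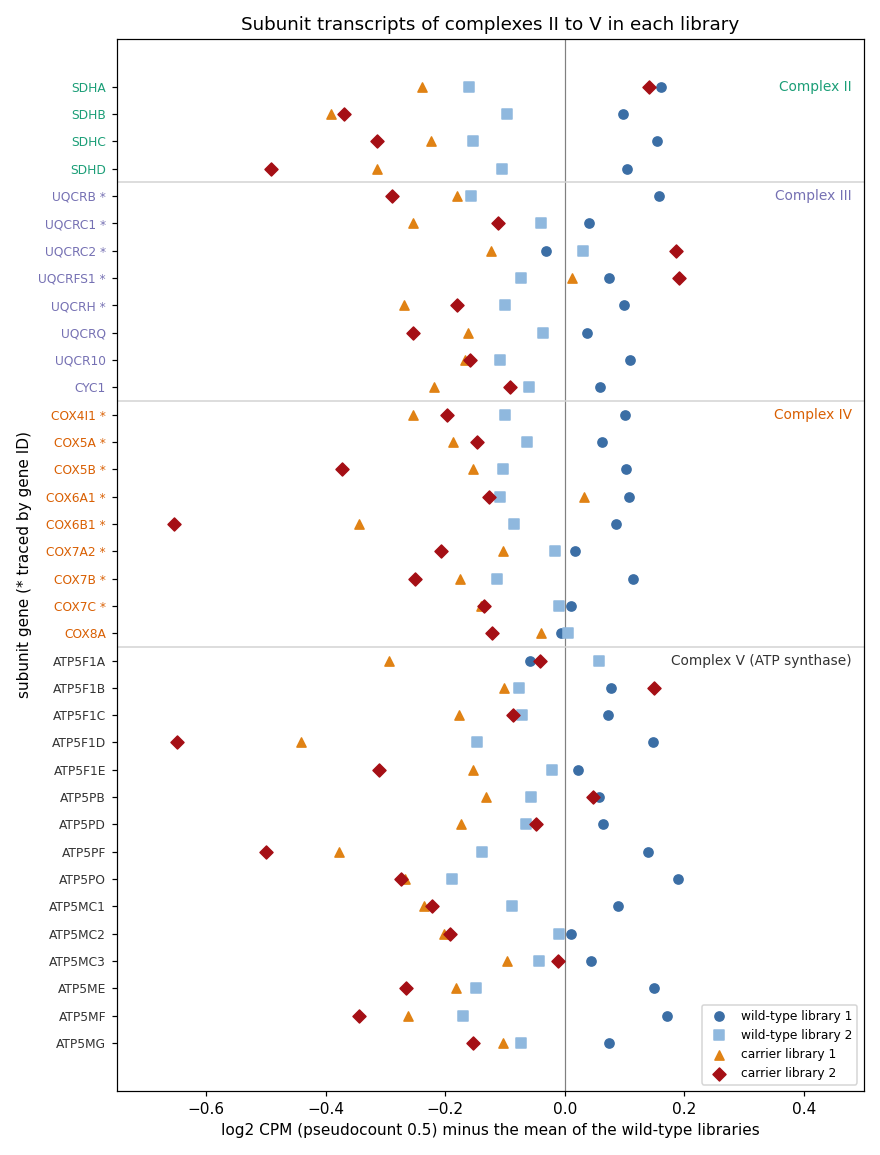
Each row is 1 subunit gene and each point 1 library, placed at its log2 CPM (pseudocount 0.5) minus the mean of the wild-type libraries, with asterisks for genes traced by ID. Carrier points (triangle and diamond) lie left of both wild-type points (circle and square) in 17 of the 23 genes matched by symbol. UQCR11 is left out of the plot because wild-type library 1 held 6 counts of it.

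The members also ordered the libraries within each group. Wild-type library 1 lay above wild-type library 2 in 21 of the 23 members (50.1% of all genes) and was the highest of the 4 libraries in 20 (25.3% of all genes). Carrier library 1 lay below both wild-type libraries in 23 of 23 (34.0% of all genes), and carrier library 2 in 17 of 23 (41.2% of all genes). The difference between group means exceeded the gap between libraries of both groups in 9 of the 23, where 23.3% of all genes did so. In the other 14 the gap inside a group was at least as large as the gap between genotypes. The summed level of the 23 was 3546 and 3296 CPM in wild type versus 2961 and 3263 CPM in carriers, so the sum in carrier library 2 was close to that in wild-type library 2.

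Complex II had the lowest median of the 4 complexes, -0.33 over its 4 subunits (-0.21 without wild-type library 1), and SDHA differed least of the 4. SDHB carries the iron-sulfur clusters that lead electrons from the flavin to ubiquinone. It stood at 73.0 and 63.8 CPM in wild type versus 51.9 and 52.7 CPM in carriers. The groups did not overlap, and the gap between them was larger than the gap inside either group (fitted log2 fold change -0.39 with a standard error of 0.14, as after ± below, n = 2 per group; edgeR adjusted p = 0.79). SDHD, a membrane anchor at the ubiquinone site, stood at 81.6 and 70.6 CPM in wild type versus 60.9 and 53.8 CPM in carriers (log2 fold change -0.41 ± 0.15; edgeR adjusted p = 0.79). Again no carrier value reached the lower wild-type value. SDHC, the other anchor, was at 95.5 and 77.1 CPM versus 73.4 and 68.9 CPM, where the wild-type libraries differed from each other by more than the group means did (log2 fold change -0.28 ± 0.16). SDHA, the flavoprotein that binds succinate, stood at 259 and 207 CPM in wild type versus 196 and 255 CPM in carriers. Its groups overlapped over nearly their whole range (log2 fold change -0.04 ± 0.19; edgeR adjusted p = 0.96). Without wild-type library 1 the value was -0.29 for SDHB, -0.30 for SDHD and -0.12 for SDHC. The sign of SDHA depended on the libraries used: it was 0.12 without wild-type library 1 and 0.13 without carrier library 1.

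For complex III, 3 subunits were found by symbol, all with both carriers under both wild types (19.4% of all genes). Their differences were small (median -0.17, and -0.10 without wild-type library 1). UQCRQ, a small subunit of the ubiquinone-binding part, stood at 63.0 and 59.8 CPM in wild type versus 54.8 and 51.4 CPM in carriers (log2 fold change -0.21 ± 0.13; edgeR adjusted p = 0.79). UQCR10, another small accessory subunit, was at 50.8 and 43.7 CPM versus 41.9 and 42.1 CPM (-0.17 ± 0.15). CYC1, the cytochrome c1 that delivers electrons to cytochrome c, was at 76.3 and 70.2 CPM versus 62.8 and 68.6 CPM (-0.16 ± 0.13). Without wild-type library 1 the value was -0.06 for UQCR10, -0.10 for CYC1 and -0.18 for UQCRQ. For CYC1 and UQCR10 the gap between wild-type library 2 and the nearer carrier library was under 2 CPM.

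The 6 further complex III genes traced by ID divided by direction, 3 lower and 3 higher in sign. UQCRH, the hinge protein at the cytochrome c side, stood at 118 and 103 CPM in wild type versus 91.3 and 97.1 CPM in carriers (log2 fold change -0.23 ± 0.13). UQCRB was at 399 and 321 CPM versus 316 and 293 CPM (-0.24 ± 0.16), and the core protein gene UQCRC1 at 165 and 156 CPM versus 135 and 149 CPM (-0.18 ± 0.12). In these 3 of the 6 genes both carriers lay under both wild types (19.4% of all genes). Without wild-type library 1 the value was -0.08 for UQCRB, -0.13 for UQCRH and -0.15 for UQCRC1.

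UQCRFS1, the Rieske iron-sulfur protein that takes the first electron from ubiquinol, stood at 132 and 119 CPM in wild type versus 126 and 143 CPM in carriers (log2 fold change 0.10 ± 0.13; edgeR adjusted p = 0.86). The second core protein gene UQCRC2 was at 185 and 194 CPM versus 174 and 216 CPM (0.04 ± 0.15), with a value of -0.13 without carrier library 2 and -0.011 with library totals in place of scaled library sizes. Carrier library 2 was the highest of the 4 in both genes. UQCR11 had 6 counts in wild-type library 1 and 146, 127 and 120 counts in wild-type library 2 and carrier libraries 1 and 2, so its fitted value of 0.51 ± 1.12 rests on that 1 library (-0.43 without it). Genes of this class have near-identical copies in primate genomes, and how the authors counted reads that fit several copies is not known here.

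Complex IV was represented by symbol through COX8A alone, a small subunit that spans the membrane. It stood at 57.2 and 57.6 CPM in wild type versus 55.9 and 52.7 CPM in carriers, a difference of -0.08 ± 0.13 on the log2 scale (edgeR adjusted p = 0.88). Carrier library 1 lay close under the wild-type values. The 8 complex IV genes traced by ID were all lower in sign (50.4% of all genes), and 7 had both carriers under both wild types (19.4% of all genes). With COX8A their median was -0.17 over 9 genes.

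COX6B1, which links the monomers of the complex IV dimer on the side of cytochrome c, had the largest difference on the lower side among the members of complexes III and IV. It stood at 93.8 and 83.2 CPM in wild type versus 69.5 and 55.9 CPM in carriers (log2 fold change -0.50 ± 0.16, n = 2 per group; edgeR adjusted p = 0.79). COX6B1 passed in edgeR without carrier library 1 (-0.66, adjusted p = 0.034), a fit in which 9.92% of all genes passed, and not in the other fits that left out a library (adjusted p of 0.97 to 1.0). COX4I1, the regulatory subunit at which ATP binds, was at 272 and 236 CPM versus 212 and 221 CPM (-0.23 ± 0.13), and COX5B at 135 and 117 CPM versus 113 and 97.2 CPM (-0.26 ± 0.15). Groups did not overlap in either gene. The other 5 lay between -0.22 and -0.05, and COX6A1, which was at 221 and 190 CPM versus 209 and 187 CPM, was the only one of these 9 members whose groups overlapped. Its sign changed without wild-type library 1 (0.06) and without carrier library 2 (0.02). Without wild-type library 1 the value was -0.13 for COX4I1, -0.16 for COX5B and -0.42 for COX6B1.

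**Figure D2:**
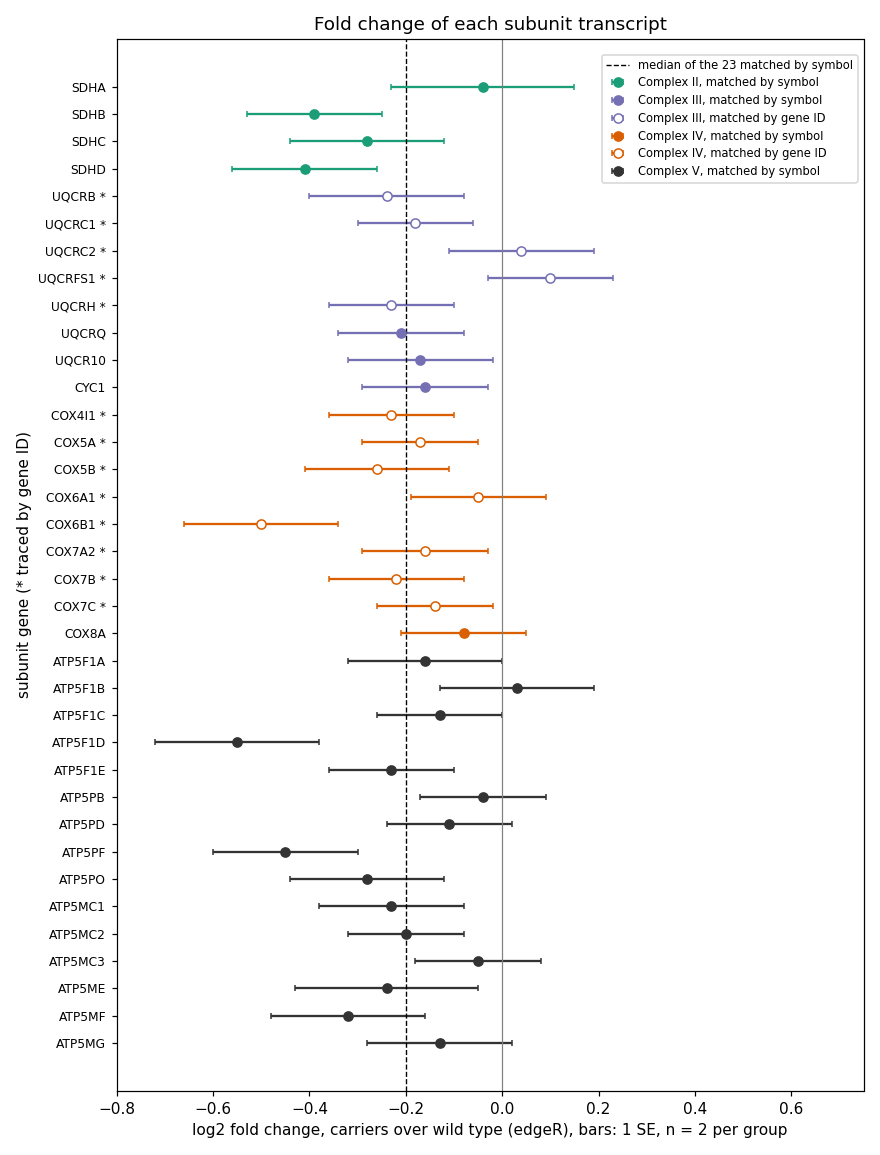
Each point is the fitted log2 fold change of carriers over wild type for 1 subunit gene, with a bar of 1 standard error (n = 2 per group), filled for genes matched by symbol and open for genes traced by ID. Points sit mainly left of 0, around the dashed median of -0.20, with ATP5F1D (-0.55) and COX6B1 (-0.50) farthest left. UQCR11 is left out.

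ATP synthase supplied 15 of the 23 members, of which 14 were lower in sign (50.4% of all genes) and 10 had both carriers under both wild types (19.4% of all genes), with a median of -0.20 (-0.088 without wild-type library 1). The catalytic head is a ring of α and β subunits around a shaft of γ, δ and ε. ATP5F1A, the α subunit, stood at 783 and 849 CPM in wild type versus 665 and 792 CPM in carriers (log2 fold change -0.16 ± 0.16; edgeR adjusted p = 0.82). ATP5F1B, the β subunit that holds the catalytic site, was at 592 and 531 CPM versus 523 and 622 CPM (0.03 ± 0.16; edgeR adjusted p = 0.97). Of the 23 members matched by symbol, it alone was higher in sign. Its sign turned with library totals in place of scaled sizes (-0.023), without wild-type library 2 (-0.045) and without carrier library 2 (-0.11). The groups overlapped for both ring subunits.

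Of the shaft subunits, δ and ε had larger differences than either ring subunit. ATP5F1D, the δ subunit, had the largest difference of all members. It stood at 72.8 and 59.2 CPM in wild type versus 48.2 and 41.7 CPM in carriers, a level fitted as 1.47-fold lower (log2 fold change -0.55 ± 0.17, n = 2 per group; edgeR adjusted p = 0.79). Its adjusted p was 0.054 without carrier library 1 and 0.97 to 1.0 without each of the others. ATP5F1E, the ε subunit, was at 86.8 and 84.2 CPM versus 76.8 and 68.8 CPM (-0.23 ± 0.13), with little spread in wild type. ATP5F1C, the γ subunit, was at 109 and 98.9 CPM versus 92.0 and 97.9 CPM (-0.13 ± 0.13), so carrier library 2 lay just under wild-type library 2. Leaving out wild-type library 1 gave -0.40 for ATP5F1D, -0.22 for ATP5F1E and -0.07 for ATP5F1C.

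The peripheral stalk holds the head still while the rotor turns. Its coupling factor ATP5PF stood at 97.4 and 80.2 CPM in wild type versus 67.9 and 62.4 CPM in carriers (log2 fold change -0.45 ± 0.15; edgeR adjusted p = 0.79). ATP5PO, which joins the stalk to the top of the head, was at 115 and 88.2 CPM versus 83.5 and 83.1 CPM (-0.28 ± 0.16), and here the gap between the wild-type libraries was larger than that between group means. ATP5PB and ATP5PD, the remaining stalk subunits, had differences of -0.04 ± 0.13 and -0.11 ± 0.13 with overlapping groups. Leaving out wild-type library 1 gave -0.09 for ATP5PO, -0.31 for ATP5PF, -0.05 for ATP5PD and 0.01 for ATP5PB, whose sign also changed without carrier library 1 (0.05). So 2 of the 4 stalk genes had both carriers under both wild types (19.4% of all genes).

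The rotor ring in the membrane is built from copies of subunit c, which ATP5MC1, ATP5MC2 and ATP5MC3 encode as the same mature protein behind different import peptides. ATP5MC1 stood at 39.7 and 35.0 CPM in wild type versus 31.6 and 31.9 CPM in carriers (log2 fold change -0.23 ± 0.15). ATP5MC2 was at 83.9 and 82.7 CPM versus 72.3 and 72.9 CPM (-0.20 ± 0.12), and its SD was under 1 CPM in each group. ATP5MC3 was at 383 and 360.3 CPM versus 348 and 369 CPM, so its groups overlapped (-0.05 ± 0.13). Leaving out wild-type library 1 gave -0.15, -0.19 and -0.01 for the 3 in this order. All 3 had edgeR adjusted p of 0.79 to 0.92.

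Because ATP5MC3 differed least, it took a slightly larger part of the reads of the 3 genes in carriers. In wild type its share was 75.6% (exact 95% binomial interval 74.5 to 76.6) and 75.4% (74.3 to 76.4). In carriers it was 77.0% (75.9 to 78.0) and 77.9% (77.0 to 78.7). The ATP5MC1 share was 7.84% and 7.33% against 7.00% and 6.74%, and the ATP5MC2 share 16.6% and 17.3% against 16.0% and 15.4%. The groups did not overlap in any of the 3 shares, but the intervals of the nearest libraries did. With 2 libraries per group the smallest two-sided p of an exact permutation test is 0.33. The intervals cover counting error only. The shares are of reads, not of transcripts per length.

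The accessory membrane subunits e, f and g (ATP5ME, ATP5MF, ATP5MG), which shape the inner membrane where ATP synthase forms dimers, were all lower in sign. In all 3 both carriers lay under both wild types (19.4% of all genes). ATP5MF stood at 87.7 and 69.1 CPM in wild type versus 64.8 and 61.2 CPM in carriers (log2 fold change -0.32 ± 0.16; edgeR adjusted p = 0.79). ATP5ME and ATP5MG had differences of -0.24 ± 0.19 and -0.13 ± 0.15. Leaving out wild-type library 1 gave -0.14 for ATP5MF, -0.08 for ATP5ME and -0.06 for ATP5MG. For all 3 genes the gap between the wild-type libraries was at least as large as the difference between group means.

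The members with many reads differed least among those matched by symbol. The 6 members with a mean of at least 100 CPM (SDHA, ATP5F1A, ATP5F1B, ATP5PB, ATP5PD and ATP5MC3) had differences of -0.16 to 0.03, overlapping groups in every case, and a higher level in carrier library 2 than in library 1 (50.5% of all genes). The 17 with a mean under 100 CPM had differences of -0.55 to -0.08, and these were the 17 without overlap. ATP5F1C lay just inside the lower class at 99.6 CPM. The boundary was chosen after the values had been seen, and the genes traced by ID did not divide in this way. With UQCR11 left out, 5 of 8 at 100 CPM or more, and 5 of 5 below it, had both carriers under both wild types (19.4% of all genes). CPM also depends on transcript length, so the classes are of read numbers and not of transcript numbers.

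**Figure D3:**
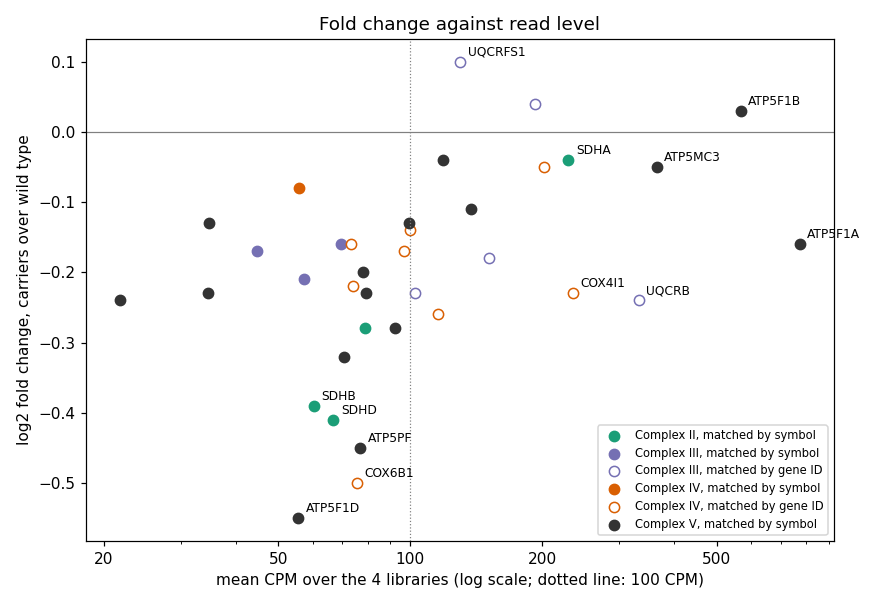
Mean CPM over the 4 libraries (log axis) is set against the fitted log2 fold change of carriers over wild type, 1 point per subunit gene, filled for genes matched by symbol and open for genes traced by ID. Filled points right of the dotted line at 100 CPM lie between -0.16 and 0.03, and those left of it between -0.55 and -0.08. UQCR11 is left out.

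Other genes of the same complexes were taken from lists chosen with earlier results of these data known. Of 10 entries for further subunits and tissue isoforms of complexes IV and V, 4 were tested, 2 lower and 2 higher in sign, with none past the test. NDUFA4, counted today as a subunit of complex IV, stood at 162 and 146 CPM in wild type versus 133 and 125 CPM in carriers (log2 fold change -0.25 ± 0.13; edgeR adjusted p = 0.79). COX7A1, the heart and muscle form of subunit VIIa, was traced by ID and was at 38.9 and 25.6 CPM versus 23.2 and 15.4 CPM (-0.74 ± 0.30, and -0.42 without wild-type library 1; edgeR adjusted p = 0.79). The 5 genes listed as electron carriers, of which COX7A2L is itself no carrier, were all lower in sign with a median of -0.19. CYCS, for cytochrome c, did not differ, at 162 and 159 CPM versus 150 and 171 CPM (fitted fold of carriers over wild type 0.998). The value for COX7A2L was -0.02. In 1 of the 5 both carriers lay under both wild types, a share close to the 19.4% of all genes.

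Assembly factors help to form the complexes without being part of them. The genes listed as such were divided in sign, and no difference between complexes was tested. Of 7 for complexes II and III, 3 were lower (median 0.01), and of 6 for ATP synthase, 3 were lower (median 0.02). Of 26 for complex IV, 18 were lower (69.2%, against 50.4% of all genes), with a median of -0.07. In 8 of these 26 both carriers lay under both wild types (30.8%, against 19.4% of all genes). No assembly factor passed edgeR's test. ATPAF1, a chaperone of the catalytic head, stood at 91.5 and 76.3 CPM in wild type versus 69.6 and 57.3 CPM in carriers (log2 fold change -0.40 ± 0.17; adjusted p = 0.79). Among 15 regulators of mitochondrial gene expression, 8 were lower and 7 higher in sign, the median was -0.00041, and none passed. PPARGC1A, the coactivator PGC-1α, was at 71.6 and 66.0 CPM versus 69.3 and 76.3 CPM (0.08 ± 0.13). ESRRA, a nuclear receptor that works with PGC-1α, was at 37.1 and 34.2 CPM versus 27.4 and 18.7 CPM (-0.63 ± 0.23; edgeR adjusted p = 0.79). TWNK, the mitochondrial DNA helicase, had 4 and 3 counts in wild type versus 16 and 30 in carriers (edgeR adjusted p = 0.79).

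Complex I, the entry point for electrons from NADH, had values of the same kind: 32 of 37 subunit genes were lower in sign (50.4% of all genes), 21 had both carriers under both wild types (19.4% of all genes), and the median was -0.18. No difference between complex I and the complexes described here was tested.

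Several cell type marker lists also lay lower in both carrier libraries. The 9 microglia markers summed to 210.0 and 240.8 CPM in wild type versus 131.7 and 102.9 CPM in carriers. Of these, 9 of 9 were lower in sign (50.4% of all genes). The 8 endothelial markers summed to 384.9 and 279.5 CPM versus 251.2 and 200.3 CPM, with 7 of 8 lower. Both carriers lay under both wild types in 5 of the 9 microglia and 4 of the 8 endothelial markers (19.4% of all genes). No marker of either list was at 0 in any library. Among the 8 pan-neuronal markers 5 were lower in sign, and in these 5 both carriers lay under both wild types (19.4% of all genes). Another 3 were higher, and in 1 of them, SYT1, both carriers lay above. The fitted values of the 8 ran from -1.07 to 0.48 around a median of -0.31. The median deviation of this list from the wild-type mean was -0.33 in carrier library 1 and -0.24 in carrier library 2. Its sum overlapped between the groups, at 10660 and 10320 CPM in wild type versus 9294 and 11190 CPM in carriers. The neurofilament gene NEFH stood at 324 and 213 CPM in wild type versus 144 and 112 CPM in carriers, and NEFM at 877 and 583 CPM versus 415 and 359.9 CPM. In both genes wild-type library 1 was the highest. This held for 4 of the 8 pan-neuronal markers, 20 of the 23 members and 25.3% of all genes. Inhibitory neuron markers lay the other way, with 7 of 8 higher in sign and sums of 686.1 and 708.5 CPM versus 807 and 882.6 CPM. Excitatory neuron markers were divided, with 4 of 8 lower in sign (50.4% of all genes) and a median of 0.01. Their sums overlapped, at 5301 and 6374 CPM in wild type versus 5544 and 5954 CPM in carriers. The sums of astrocyte and oligodendrocyte markers were lowest in carrier library 2. In 3 of the 9 astrocyte markers (ALDH1L1, S100B and FGFR3) carrier library 1 also lay below both wild types. That share was close to the 34.0% of all genes. The 23 members had a median deviation of -0.20 in carrier library 1 and -0.19 in carrier library 2 (log2, relative to wild type). With carrier library 2 left out, the 23 had a median fold change of -0.21 on that scale and 23 of 23 were lower in sign (52.0% of all genes). The part of these cell types in the subunit values was not tested.

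**Figure D4:**
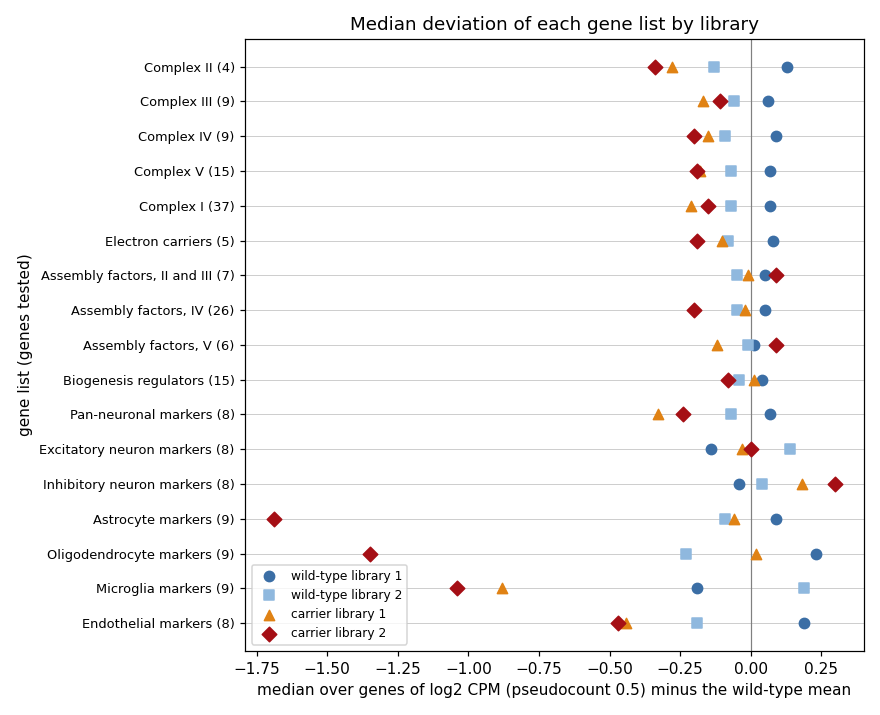
Each row is a gene list with the number of genes tested, and each point the median over its genes of log2 CPM (pseudocount 0.5) minus the wild-type mean in 1 library. The 4 complexes and complex I have both carrier points left of both wild-type points, with carrier deviations of -0.34 to -0.11 from the wild-type mean. The electron carrier, pan-neuronal, microglia and endothelial lists have the same order. The carrier points of assembly factors and regulators lie between -0.20 and 0.09. Carrier library 2 lies far left for astrocyte (-1.69) and oligodendrocyte (-1.35) markers.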

How the data were processed

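The authors deposited raw whole-number read counts per gene, 1 column per library and 1 table for the 4 libraries, with no normalization. Per the submitters' processing notes, STAR 2.5.3a, featureCounts 1.5.2 and kallisto 0.46.2 were used, in roles not stated there. Per the labels' protocols, total RNA was column-purified and KAPA Hyper was used for the libraries. Genome build and annotation: not given in the sources used here. The strand setting is likewise unknown, so antisense and overlapping genes cannot be told apart.

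Genes were kept with filterByExpr (16385 of 35108) and library sizes scaled by TMM in edgeR 4.0.16 (R 4.3.3). The quasi-likelihood F-test with genotype as the only term left 2 residual degrees of freedom. The Benjamini-Hochberg adjustment ran over all genes kept (threshold 0.05). Standard errors are the fitted log2 fold change divided by the square root of F. A count of 3 corresponds to 0.158 to 0.237 CPM. All pairs of libraries were further apart than sampling noise (chi-square of 7.62 to 48.1 per degree of freedom).

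Gene IDs and synonyms came from RefSeq (calJac240_pri), which need not be the build counted. Members and lists were chosen with earlier results of these data known. Named members were the 3 with the smallest p per complex (2 in complex II), a fixed set of core subunits, and those higher in sign, by symbol and by ID apart. Other lists give at most the 2 genes with the smallest p. SDHC, ATP5F1C, ATP5PO, ATP5PB, ATP5PD, ATP5ME, ATP5MG, COX6A1, PPARGC1A, CYCS, COX7A2L, SYT1 and FGFR3 were named outside this rule, with their values known. Planned motif and protein displays were not made, as no sequences were used here.

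Alternatives were DESeq2 1.42.0, limma-voom (limma 3.58.1), RLE scaling, no scaling, no low-count filter, a mean count of at least 50, a replicate block and leaving out each library. A crossed block and the genes traced by ID were added after seeing the data. The replicate numbers are not said to pair libraries, and the deviations of same-numbered libraries correlated at -0.137 across genes. The test was also run on simulated data for carriers against wild type, with 200 of 16385 genes changed in each of 5 sets. Levels, spread and library sizes of the simulation were taken from the fit to the real counts. There edgeR recovered 18.8% of genes changed 2-fold and 68.8% of those changed 4-fold. No change smaller than 2-fold was simulated, so these rates do not cover the members, whose largest fitted difference was 1.47-fold.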

Additional observations from a re-analysis of the deposited data

How the results depend on the processing

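In the 23 members matched by symbol, 0 were called under every alternative run, while the number called among all genes went from 0 to 5 with no low-count filter, 48 with DESeq2 and 0 to 1710 when 1 library was left out (1710 without carrier library 1, 3 without carrier library 2). Members lower in sign numbered 20 to 23, and members with both carriers under both wild types 16 to 23 of 23. With the genes traced by ID the latter was 27 of 37 (19.4% of all genes). Leaving out 1 library moved the median of the members between -0.24 and -0.10, that of complex II between -0.45 and -0.21, of complex III between -0.24 and -0.10, of COX8A for complex IV between -0.12 and -0.043, and of ATP synthase between -0.21 and -0.088. The values nearest 0 came without wild-type library 1, except for COX8A. In the fit without that library genotype and sex cannot be told apart. For complex IV the median was -0.13 with library totals and -0.17 with the genes traced by ID. With library totals ATP5F1B (-0.023) and UQCRC2 (-0.011) changed sign. Leaving out 1 library gave -0.25 to 0.13 for SDHA, -0.11 to 0.15 for ATP5F1B, -0.13 to 0.19 for UQCRC2 and -0.43 to 4.08 for UQCR11, each with a change of sign. ATP5PB and COX6A1 also changed sign when 1 library was left out. The cause of these changes was not tested.

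With the replicate block 0 members and 0 genes were called, 22 members were lower in sign and the median was -0.20. With the numbers crossed, 0 members and 0 genes were called. The block changed no call. With 2 libraries per group and a biological coefficient of variation of 24.5%, no member's difference passed the test against the spread between libraries.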

Other observations

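Read level and the difference between the carrier libraries went together among the 23 members matched by symbol: the correlation across genes between mean log2 CPM and the log2 difference of carrier library 2 minus library 1 was 0.70 (Pearson) and 0.59 (Spearman), over 23 genes that share the same 4 libraries. Over 13 members traced by ID, without UQCR11, it was 0.27 and 0.23, and over all 16385 genes tested 0.08 and 0.12. These are descriptions across genes, which are not independent replicates.

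Of the 37 complex I subunit genes, NDUFV3 had the largest difference on the higher side. This accessory subunit of the electron input module stood at 12.46 and 11.99 CPM in wild type versus 18.2 and 19.5 CPM in carriers (fitted log2 fold change 0.63 ± 0.19; edgeR adjusted p = 0.79). It was named after its values were seen.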
